A study of Mus musculus with 8 samples.

Results

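The nuclear-encoded subunits of the mitochondrial respiratory chain were examined in whole blood of restraint-stressed and control mice. The members were all probe sets whose single gene symbol in the platform annotation marks a subunit of complex I (Nduf, without the Ndufaf assembly factors), complex II (Sdha to Sdhd), complex III (Uqcr and Cyc1), complex IV (Cox4i, Cox5, Cox6, Cox7 and Cox8) or complex V (Atp5), together with Cycs, which encodes cytochrome c. This gave 174 of 45037 probe sets, for 84 of 18194 genes. Complex I had 78 probe sets, complex II 9, complex III 17, complex IV 35, complex V 31 and Cycs 4. The mice were C57BL/6J females, for which the labels give an age of 6 to 8 weeks and the study's methods name this as the age at purchase, before a period of acclimation. The 4 restrained mice (RST) spent 6 h of each day in a ventilated tube for 7 days, and the 4 control mice were left undisturbed but went without food and water in the same hours. Blood was taken on Day 7 and 30 ng RNA of each mouse was amplified and hybridized to an array of its own, so n = 4 animals per group throughout. On every array Hba-a2, a hemoglobin gene of red cells, was at 10.83 or above and Ptprc, the leukocyte antigen CD45, at 8.56 or above, both far above the array medians.

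The respiratory chain passes electrons from NADH (complex I) and succinate (complex II) through complex III and cytochrome c to oxygen (complex IV), and ATP synthase (complex V) makes ATP from the proton gradient that this builds up. Apart from complex II, which is wholly nuclear-encoded, the complexes also hold subunits made from mitochondrial DNA, none of which was analysed here. In blood, leukocytes and platelets carry mitochondria, whereas reticulocytes clear theirs as they mature into red cells. In a bulk sample of this kind, fewer cells of a type and less RNA per cell cannot be told apart.

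Levels are log2 expression values per probe set. A probe set was tested where it lay above the median of its own array in at least 2 of the 4 arrays of a group. Of the 174 member probe sets, 140 passed through both groups, 2 through RST only, 3 through control only, and 29 did not pass, which left 145 probe sets for 79 genes. The 5 genes without a tested probe set were Cox4i2, Cox7a1, Cox8c, Ndufa4l2 and Ndufb4. A gene is represented by its brightest tested probe set, and the levels of different genes are not read as amounts relative to each other. The median log2 fold change of the 11762 tested genes, RST minus control, was −0.24, so values called relative below are given after subtracting this median gene.

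No member was called at an adjusted p under 0.05 with a fold change above 1.5 (0 of 145, against 0% of 25084 probe sets tested in limma), and the smallest adjusted p among members was 0.32. At an unadjusted p under 0.05 with the same fold, 20 member probe sets (13.8%) were lower in RST mice, beside 10.4% of all tested probe sets, and 2 (1.38%) were higher, beside 2.89%. The 20 include a probe set of Ndufa3 that passed the filter through control mice only, the group where it was higher. Counted as genes, 11 of 79 (13.9%) were lower, beside 12.8% of all tested genes, and 2 (2.53%) were higher, beside 2.8%. By these counts the members as a whole lay close to the background. RST and control values did not overlap for 15 member probe sets that were lower in RST mice (10.3%, against 5.76% of all) and for 3 that were higher (2.07%, against 2.23%). With no filter, 25 of all 174 members (14.4%) were lower at the unadjusted threshold, against 6.54% of 45037 probe sets. Another 3 (1.72%) were higher, against 2.14%. That background also holds the dim probe sets that failed the filter. With a filter at the 75th percentile, 13.7% of members were lower, against 14.1% of all. The median of the 79 genes was −0.26, or −0.017 relative to the median gene. The unadjusted count of lower members was 5 (3.47%, against 5.08% of all tested probe sets) when control mouse 1 was left out, 5 (3.5%, against 5.39%) when control mouse 2 was, 6 (4.14%, against 5.98%) when RST mouse 4 was and 12 (8.33%, against 7.64%) when RST mouse 1 was. It was 0, against 2.64% of all, with both control mice 1 and 2 left out.

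The complexes differed from each other in their medians. Complex I genes had a median log2 fold change of −0.44 (34 genes, 29 with a lower mean in RST mice), complex II −0.60 (4 genes, 4 lower), complex III −0.26 (9 genes, 7 lower), complex IV 0.10 (14 genes, 4 lower) and complex V −0.21 (17 genes, 10 lower), where 67.6% of all tested genes had a lower mean. Relative to the median gene this put complex I at −0.20, complex II at −0.36, complex III at −0.017, complex IV at 0.35 and complex V at 0.030. Over all member probe sets with no filter the medians were −0.32 for complex I, −0.51 for complex II, −0.0035 for complex III, 0.017 for complex IV and −0.061 for complex V, against −0.010 for all probe sets on the array. Scaling to the control probe sets moves the median gene to −0.45 and leaves the relative values as they are, so complex IV is above 0 in the deposited scaling and below 0 in that one. The 14 complex IV genes include Cox8b, which passed the filter through RST mice only. All these medians are descriptions of gene lists, for which no test was made.

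In single mice, RST and control were apart in complexes I and IV. The complex I score, the mean deviation of its genes from their own means less the deviation of the array's median gene, was −0.025, −0.11, −0.096 and −0.18 in RST mice 1 to 4 and 0.11, 0.10, 0.0056 and 0.041 in control mice 1 to 4. All RST mice were below all control mice. The complex IV score was 0.29, −0.082, 0.046 and 0.31 in RST mice and −0.26, −0.26, −0.086 and −0.11 in control mice, so that the lowest RST mouse was only just above the highest control mouse. The complex II score was −0.22, −0.058, −0.074 and −0.33 in RST mice and 0.38, 0.22, −0.076 and 0.0003 in control mice. The groups overlapped there through control mouse 3, and they overlapped as well in complex III and complex V. Control mice 1 and 2 were farthest from the RST mice in complexes I, II and IV, and without both of them the relative medians were −0.078 for complex I, 0.018 for complex II and 0.16 for complex IV.

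**Figure D1:**
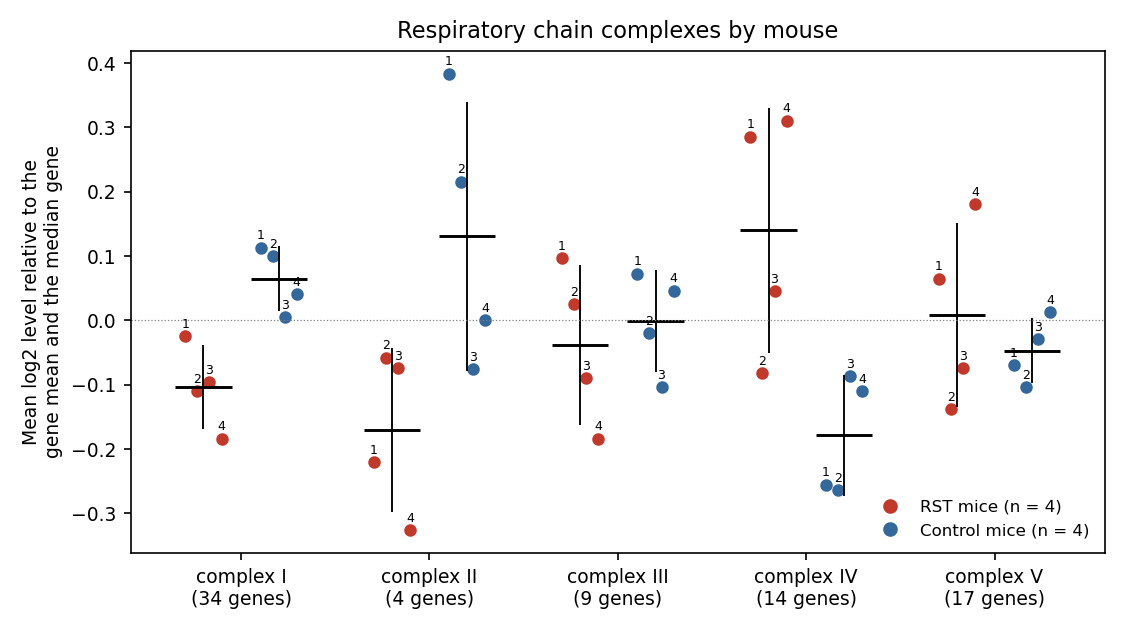
Score of each complex by mouse (y axis, mean log2 deviation from each gene's mean, less that of the array's median gene), with RST mice in red left of control mice in blue, numbered 1 to 4; bars are the mean and the SD (n = 4). In complex I all RST mice were below all control mice and in complex IV all were above them, and the groups overlapped in the other 3.

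Brightness of the probe set, used here only to sort genes by signal, moved with these differences. Among all tested genes the median log2 fold change was −0.25 for 9481 genes with a mean level below 7, −0.33 for 1634 genes between 7 and 9 and 0.097 for 647 genes above 9. The 20 member genes above 9 had a median of 0.12 (13 higher and 7 lower in mean), the 30 between 7 and 9 one of −0.37 and the 29 below 7 one of −0.46. Of the 14 complex IV genes 8 were above 9, with a median of 0.11, close to the 0.097 of all genes as bright. The 4 complex IV genes below 7 and the 2 between had medians of 0.065 and 0.090. Those 4 were Cox6a2, Cox7b2, Cox7c and Cox8b, with group means from 3.08 to 4.07, near the median probe set of an array. Cox8b passed the filter through RST mice only. The 17 complex I genes below 7 had a median of −0.59, beside −0.25 for all genes as dim. The 13 between had one of −0.42, beside −0.33, and the 4 above 9 one of 0.036, beside 0.097. Complex V was divided in the same manner, with −0.44 for 11 genes between 7 and 9 and 0.28 for 6 above 9. The part of brightness in the difference between complexes was not tested.

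**Figure D2:**
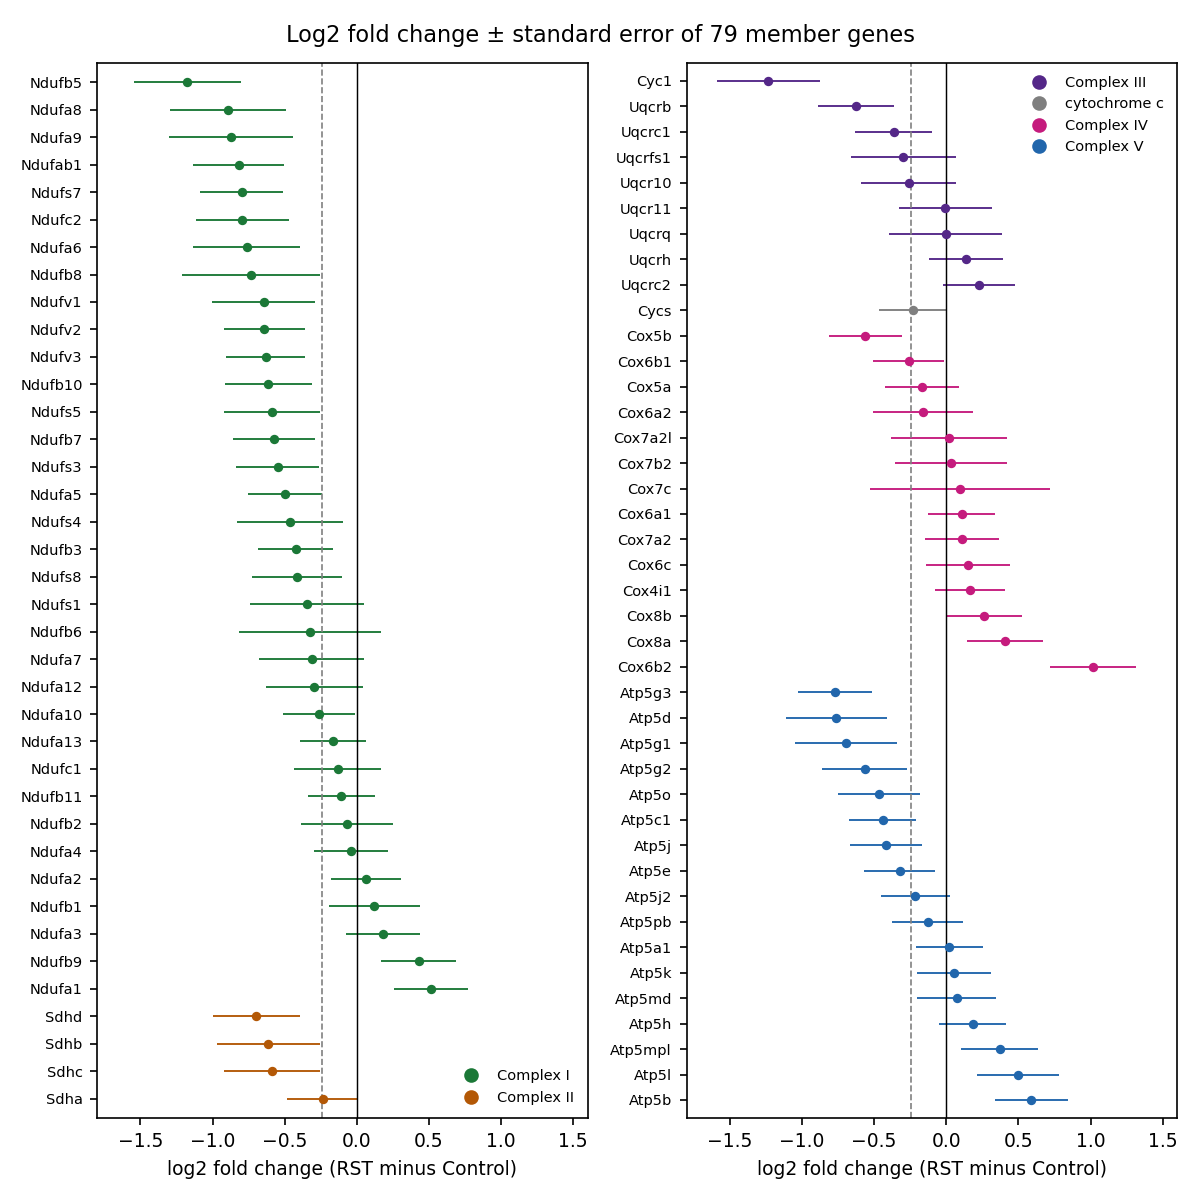
Log2 fold change (x axis, RST minus control) with its standard error for the 79 member genes, in rows by complex and sorted within each; the solid line is 0 and the dashed line the median of all tested genes (−0.24). Complex I runs mostly left of the dashed line, from −1.17 to 0.51, and complex IV mostly right of it, from −0.56 to 1.01.

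Promoters were read for 4 members that recur below: Ndufb5 and Sdhd, with lower mean levels in RST mice, Cox6b2, with a higher one, and Cycs. They are shown to compare their make-up upstream of the start site, since nuclear respiratory genes are known for binding sites of NRF1, of the ETS factor GABPA (NRF2) and of YY1. Each is the 250 bases before the RefSeq start site in GRCm38.p6, 5′ to 3′ on the strand of the gene, with a motif match in capitals. Ndufb5 lies at chr3:32736813-32737062 (+), Sdhd at chr9:50603850-50604099 (−), Cycs at chr6:50566570-50566819 (−) and Cox6b2 at chr7:4753095-4753344 (−).
Ndufb5: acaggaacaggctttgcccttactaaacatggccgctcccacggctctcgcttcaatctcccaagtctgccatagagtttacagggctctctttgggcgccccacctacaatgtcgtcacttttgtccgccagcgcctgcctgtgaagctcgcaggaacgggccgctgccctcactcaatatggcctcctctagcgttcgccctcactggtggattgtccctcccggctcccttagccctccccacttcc
Sdhd: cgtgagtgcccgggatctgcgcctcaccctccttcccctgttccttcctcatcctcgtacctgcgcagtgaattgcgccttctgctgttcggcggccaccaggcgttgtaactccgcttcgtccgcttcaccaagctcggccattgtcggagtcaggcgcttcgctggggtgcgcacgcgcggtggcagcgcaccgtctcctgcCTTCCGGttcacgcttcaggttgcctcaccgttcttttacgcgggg
Cycs: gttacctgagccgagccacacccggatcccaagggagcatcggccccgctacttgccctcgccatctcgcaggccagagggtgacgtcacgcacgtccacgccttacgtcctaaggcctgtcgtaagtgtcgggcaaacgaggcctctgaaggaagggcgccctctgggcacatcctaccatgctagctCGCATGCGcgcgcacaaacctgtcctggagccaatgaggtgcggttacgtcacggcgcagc
Cox6b2: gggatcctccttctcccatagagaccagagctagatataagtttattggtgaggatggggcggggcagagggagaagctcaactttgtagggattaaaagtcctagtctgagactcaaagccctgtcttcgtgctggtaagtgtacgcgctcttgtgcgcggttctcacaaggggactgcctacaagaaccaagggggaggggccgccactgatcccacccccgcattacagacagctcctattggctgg
The capitals in Cycs are the NRF1 core CGCATGCG, and NRF1 is known from its binding to the rat cytochrome c promoter. The capitals in Sdhd are CTTCCGG, the reverse complement of the ETS motif CCGGAAG. No searched motif was found in the windows of Ndufb5 or Cox6b2, and they held 13 and 8 CG pairs, beside 27 in Sdhd and 23 in Cycs.

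Promoters matched for 68 of the 84 member genes, and both strands of each were searched. A promoter held the NRF1 core in 7 of these genes (10.3%), beside 1.75% of all 27025 genes with a promoter. The ETS motif was in 12 (17.6%), beside 7.83%, and the YY1 motif AAGATGG in 1 (1.47%, Atp5j), beside 5.18%. A match is only a match of letters. The 7 genes with the NRF1 core ran from −0.89 (Ndufa8) and −0.57 (Atp5g2) over −0.42 (Atp5j), −0.23 (Cycs), 0.052 (Atp5k) and 0.11 (Cox6a1) to 0.50 (Atp5l) in log2 fold change. The 12 with the ETS motif ran from −0.70 (Sdhd) to 0.50 (Atp5l). Both groups thus held genes with lower and with higher mean levels in RST mice.

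In complex I, Ndufb5, a small accessory subunit, had the largest difference. Its level was 6.42, 7.13, 7.11 and 5.51 in RST mice 1 to 4, against 7.93, 7.98, 7.61 and 7.34 in control mice 1 to 4. All RST mice were below all control mice, with RST mouse 4 the lowest. The log2 fold change was −1.17 (SE 0.37), and the adjusted p in limma was 0.32. The other tested probe set of Ndufb5 gave −0.88, with overlap. Ndufs7, a core subunit that carries the last iron-sulfur cluster before ubiquinone, was at 7.37, 7.78, 7.04 and 7.57 in RST mice and 8.66, 8.46, 7.98 and 7.85 in control mice. The groups did not overlap here either, by a narrow margin between RST mouse 2 and control mouse 4. The log2 fold change was −0.80 (SE 0.29, adjusted p = 0.32), and the other tested probe set of Ndufs7 gave −0.65, with overlap. Ndufab1, the mitochondrial acyl carrier protein, averaged 5.56 ± 0.50 in RST mice and 6.37 ± 0.36 in control mice (SD), which differed by −0.82 (SE 0.32, adjusted p = 0.33).

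The core subunits of complex I do the work of electron transfer, and 6 nuclear-encoded ones were tested here. All 6 had lower means in RST mice, with a median of −0.35 relative to the median gene, beside −0.13 for the 28 other tested complex I genes. The score of the core genes overlapped between the groups, with RST mouse 2 at 0.0053 and control mouse 4 at −0.034. That of the 28 others was lower in every RST mouse than in every control mouse. The complex I genes with a mean level above 9 were all among the 28 others. Ndufv1, which binds NADH and flavin, had a log2 fold change of −0.65 (SE 0.36) at its brightest probe set and of −0.88 and −1.23 at the others, the last without overlap. Its neighbor in the NADH-oxidizing module, Ndufv2, had one of −0.64 (SE 0.28). The 4 Ndufv2 values in RST mice, from 5.59 to 6.61, were below all control values, from 6.79 to 7.07, though its other 2 tested probe sets gave −0.032 and −0.099. Ndufs1, with several iron-sulfur clusters, had −0.35 (SE 0.40), Ndufs3 −0.55 (SE 0.29) and Ndufs8 −0.41 (SE 0.31), with adjusted p from 0.40 to 0.70 in limma. The Ndufs1 value rested on RST mouse 4, which was at 4.69 against 5.96 to 6.69 in the other RST mice, and was 0.062 without it. Without the same mouse Ndufv1 was −0.32 and Ndufv2 −0.42, and Ndufs8 was −0.28 without control mouse 1.

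Of the 5 complex I genes with higher means in RST mice, Ndufa1, a small subunit of the membrane arm, had the highest. It was at 9.61, 9.52, 9.64 and 9.46 in RST mice, against 8.92, 8.62, 9.27 and 9.36 in control mice. All RST mice were above all control mice, at a log2 fold change of 0.51 (SE 0.26, adjusted p = 0.39). Ndufa4, which is named for complex I but is now placed in complex IV, differed by −0.041 (SE 0.26, adjusted p = 0.95). Tested probe sets of 1 gene disagreed in sign for 7 genes. In complex I these were Ndufa10 (−0.26 and 0.37), Ndufa3 (−0.81 to 0.20), Ndufb11, Ndufb2 (−0.59 to 0.024) and Ndufs4 (−0.46 to 0.021), and outside it Uqcr10 and Cox7a2l. The −0.81 of Ndufa3 came from its dimmest probe set, with a mean of 3.05 in RST mice and 3.86 in control mice. That probe set passed the filter through control mice only, and the brighter ones of Ndufa3 gave 0.18 and 0.20.

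Complex II, succinate dehydrogenase, also belongs to the citrate cycle, and all 4 of its genes had lower means in RST mice. Sdhd, a membrane anchor, was at 5.74, 5.69, 5.71 and 4.64 in RST mice, against 6.23, 6.17, 5.96 and 6.20 in control mice. The groups did not overlap, and RST mouse 4 was far below the other RST mice. The log2 fold change was −0.70 (SE 0.30, adjusted p = 0.35), and −0.43 without RST mouse 4. The other tested probe set of Sdhd gave −0.71, with overlap. Sdhb, the iron-sulfur subunit, differed by −0.61 (SE 0.36), Sdhc, the other anchor, by −0.59 (SE 0.33) and Sdha, the flavoprotein, by −0.24 (SE 0.25). The other tested probe sets of these genes gave −0.070 for Sdhc and −0.51 for Sdha. Without RST mouse 4 Sdhb was −0.37 and Sdha −0.15, and without control mouse 1 Sdhc was −0.34.

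In complex III, Cyc1 and Uqcrb stood apart from the other genes. Cyc1, cytochrome c1, which hands electrons to cytochrome c, was at 4.56, 5.06, 4.47 and 3.58 in RST mice, against 6.15, 5.90, 5.12 and 5.42 in control mice. The groups did not overlap, though RST mouse 2 came close to control mouse 3. The log2 fold change of −1.23 (SE 0.36, adjusted p = 0.32) had the largest size of all 79 member genes. Uqcrb, the ubiquinone-binding protein, was at 9.06, 8.86, 9.58 and 9.26 in RST mice, against 9.85, 10.11, 9.68 and 9.61 in control mice. These groups did not overlap, and both of its probe sets gave nearly the same difference, −0.62 (SE 0.26, adjusted p = 0.35) and −0.61. The core protein genes Uqcrc1 and Uqcrc2 differed by −0.36 (SE 0.27) and by 0.23 (SE 0.25), and the remaining 5 genes lay between −0.30 and 0.14. Cycs, whose promoter is given above, was at 7.61 to 7.80 in RST mice and 7.84 to 8.08 in control mice, with no overlap and a log2 fold change of −0.23 (SE 0.23, adjusted p = 0.65). Its other 2 tested probe sets gave −0.48 and −0.65, both with overlap.

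**Figure D3:**
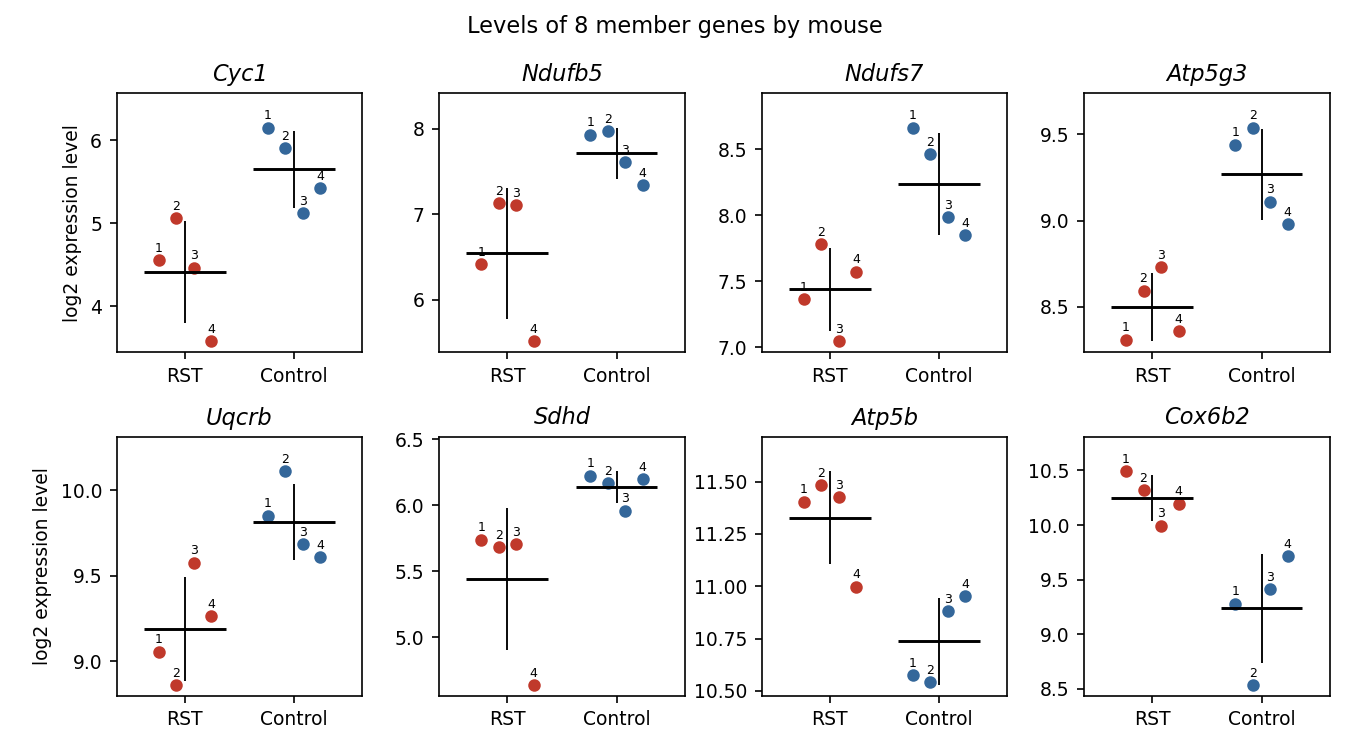
Log2 level (y axis, each panel with its own scale that does not start at 0) of 8 member genes in RST mice (red, left) and control mice (blue, right), numbered 1 to 4, with mean and SD (n = 4). Each gene is shown at its brightest tested probe set, where the groups overlapped in none of the 8. Cyc1, Ndufb5, Ndufs7, Atp5g3, Uqcrb and Sdhd were lower and Atp5b and Cox6b2 higher in every RST mouse. At the other tested probe sets of Ndufb5, Ndufs7 and Sdhd the groups overlapped.

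Complex IV, cytochrome c oxidase, has subunits with tissue isoforms. Cox6b2, known as the testis isoform of subunit VIb, had the highest difference of all members. It was at 10.49, 10.32, 10.00 and 10.19 in RST mice, against 9.28, 8.54, 9.41 and 9.72 in control mice. All RST mice were above all control mice, control mouse 2 was the lowest, and the log2 fold change was 1.01 (SE 0.30, adjusted p = 0.32). Its general counterpart Cox6b1 differed by −0.26 (SE 0.25, adjusted p = 0.63), with 9.65 ± 0.11 in RST mice and 9.91 ± 0.26 in control mice (SD). Cox5b had the lowest value of the complex, −0.56 (SE 0.25, adjusted p = 0.37). It was at 9.27 to 9.70 in RST mice and 9.74 to 10.31 in control mice, without overlap, and its 4 tested probe sets lay between −0.62 and −0.48. Cox5a, which binds next to it, differed by −0.17 (SE 0.26), and Cox8a by 0.41 (SE 0.26, adjusted p = 0.48).

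The ubiquitous isoforms Cox4i1, Cox6a1 and Cox7a2 differed by 0.16 (SE 0.24), 0.11 (SE 0.23) and 0.11 (SE 0.25). Their sign is that of the deposited scaling, since scaling to the control probe sets lowers every gene by the same amount and puts these 3 at −0.039, −0.098 and −0.094. The heart and muscle isoforms were near or below the level of the median probe set of an array, which ran from 3.19 to 3.46 in RST mice and from 3.29 to 3.44 in control mice. Cox7a1 was at 1.46 to 2.06 in RST mice and 1.63 to 2.43 in control mice, and Cox6a2 averaged 3.65 ± 0.40 and 3.81 ± 0.62 (SD) in RST and control mice. Cox8b passed the filter through RST mice only, at 3.34 ± 0.18 and 3.08 ± 0.32. The lung isoform Cox4i2 was at 2.25 to 2.53 in RST mice and 1.92 to 3.14 in control mice, and both probe sets of Cox8c and that of Ndufa4l2 also failed the filter. Cox7b2, known from testis, differed by 0.035 (SE 0.39) and changed sign when single mice were left out. Cox7a2l, a factor that joins complexes III and IV, differed by 0.016 (SE 0.40), with control mouse 3 at 7.47 and RST mouse 3 at 7.99 below all the others, from 8.63 to 9.21 in RST mice and 8.91 to 9.08 in control mice.

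In complex V, the subunit c genes and the catalytic subunit differed in opposite directions. Atp5g1, Atp5g2 and Atp5g3 encode the same mature subunit c of the membrane rotor. Atp5g3 was at 8.31, 8.59, 8.73 and 8.36 in RST mice, against 9.44, 9.54, 9.11 and 8.98 in control mice. All RST mice were below all control mice, at a log2 fold change of −0.77 (SE 0.25, adjusted p = 0.32). Atp5g1 differed by −0.70 (SE 0.35, adjusted p = 0.39), or −0.45 without RST mouse 4, and Atp5g2 by −0.57 (SE 0.30, adjusted p = 0.40), both with overlap. Atp5d, the delta subunit of the stalk, differed by −0.76 (SE 0.35, adjusted p = 0.37). Atp5b, the catalytic beta subunit, was at 11.40, 11.48, 11.43 and 11.00 in RST mice, against 10.58, 10.54, 10.88 and 10.95 in control mice. All RST mice were above all control mice, narrowly so for RST mouse 4, and the log2 fold change was 0.59 (SE 0.25, adjusted p = 0.35). Atp5a1, the alpha subunit that alternates with beta, differed by only 0.022 (SE 0.23).

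Genes that serve the respiratory chain mostly had lower mean levels in RST mice, beside 55 of 79 genes of the chain itself. Of 76 tested genes of the mitochondrial ribosome, which translates the subunits encoded in mitochondrial DNA, 72 had lower means in RST mice. The background over all tested genes is 67.6% with a lower mean, 12.8% lower at the unadjusted threshold and 2.8% higher, for this list and for those that follow. At that threshold 24 of the 76 were lower and 1 was higher, and the relative median was −0.33. Mrps16 differed by −1.07 (SE 0.26) and Mrpl21 by −1.01 (SE 0.28), both at an adjusted p of 0.32. Of 15 tested genes of the citrate cycle and pyruvate dehydrogenase, 14 had lower means, 4 at the unadjusted threshold, and the relative median was −0.37. Fh1, fumarase, differed by −1.39 (SE 0.37) and Idh3b, a subunit of isocitrate dehydrogenase, by −1.37 (SE 0.36), while Ogdh, of the oxoglutarate dehydrogenase complex, differed by 0.97 (SE 0.31). Of 15 carriers, porins and import genes 14 had lower means and 4 passed the unadjusted threshold, with a relative median of −0.26. Tomm22, an import receptor of the outer membrane, differed by −0.85 (SE 0.25) and Hspe1, the co-chaperonin of the matrix, by −0.81 (SE 0.25), both at an adjusted p of 0.32.

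Of 38 tested assembly factors, which build the complexes without being part of them, 33 had lower means in RST mice, 8 at the unadjusted threshold, and the relative median was −0.18. Cox15, needed to make the heme a of complex IV, was at 4.33, 5.46, 4.77 and 3.93 in RST mice, against 5.94, 6.54, 5.66 and 5.99 in control mice. The groups did not overlap, at a log2 fold change of −1.41 (SE 0.35, adjusted p = 0.32). Bcs1l, which inserts the iron-sulfur protein into complex III, differed by −1.06 (SE 0.30). All 12 tested regulators of mitochondrial biogenesis had lower means in RST mice, 6 at the unadjusted threshold, and their relative median was −0.41. Tfam, which packages and transcribes mitochondrial DNA, was at 4.40, 5.42, 5.17 and 4.25 in RST mice, against 6.12, 6.06, 5.44 and 5.56 in control mice. RST mouse 2 reached almost to control mouse 3, and the log2 fold change was −0.98 (SE 0.33, adjusted p = 0.32). Gabpa and Nrf1, whose motifs were searched above, differed by −0.82 (SE 0.33) and −0.68 (SE 0.28), both at an adjusted p of 0.34. No gene of these lists passed the adjusted threshold in limma. In single mice the ribosome, citrate cycle and carrier scores overlapped between the groups, and those of assembly factors and biogenesis regulators did not. The ribosome score was 0.40 and 0.30 in control mice 1 and 2, and −0.073 and −0.015 in control mice 3 and 4. In RST mice it ran from −0.32 to −0.061.

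Markers of blood cell types also differed between the groups. All 8 tested markers of reticulocytes and red cells had higher means in RST mice, 4 at the unadjusted threshold, with a relative median of 0.76. Their score was 0.50, 0.42, 0.27 and 0.44 in RST mice and −0.62, −1.04, −0.12 and −0.0029 in control mice, where control mice 1 and 2, which were also lowest in complex IV and highest in complex I, stood at the low end. All 7 B cell markers were lower at the unadjusted threshold (relative median −0.87), with scores of −0.51, −0.46, −0.72 and −0.21 in RST mice and 0.75, 0.81, 0.22 and −0.042 in control mice. All 8 T cell markers had lower means (relative median −0.70), as did all 8 monocyte markers (−0.53) and 5 of 6 NK cell markers (−0.56). Platelet markers had a relative median of 0.47 (6 of 8 with higher means) and neutrophil markers one of 0.29 (4 of 7 with higher means). The neutrophil markers ran from −1.79 to 0.35 in log2 fold change, with a median of 0.041. Their mean score was lower in RST mice, at −0.066 against 0.027 in control mice. Red cell and platelet scores were above those of every control mouse in all RST mice, B and T cell scores were below them, and the other 3 overlapped. The part of these cell types in the values of the respiratory chain was not tested.

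**Figure D4:**
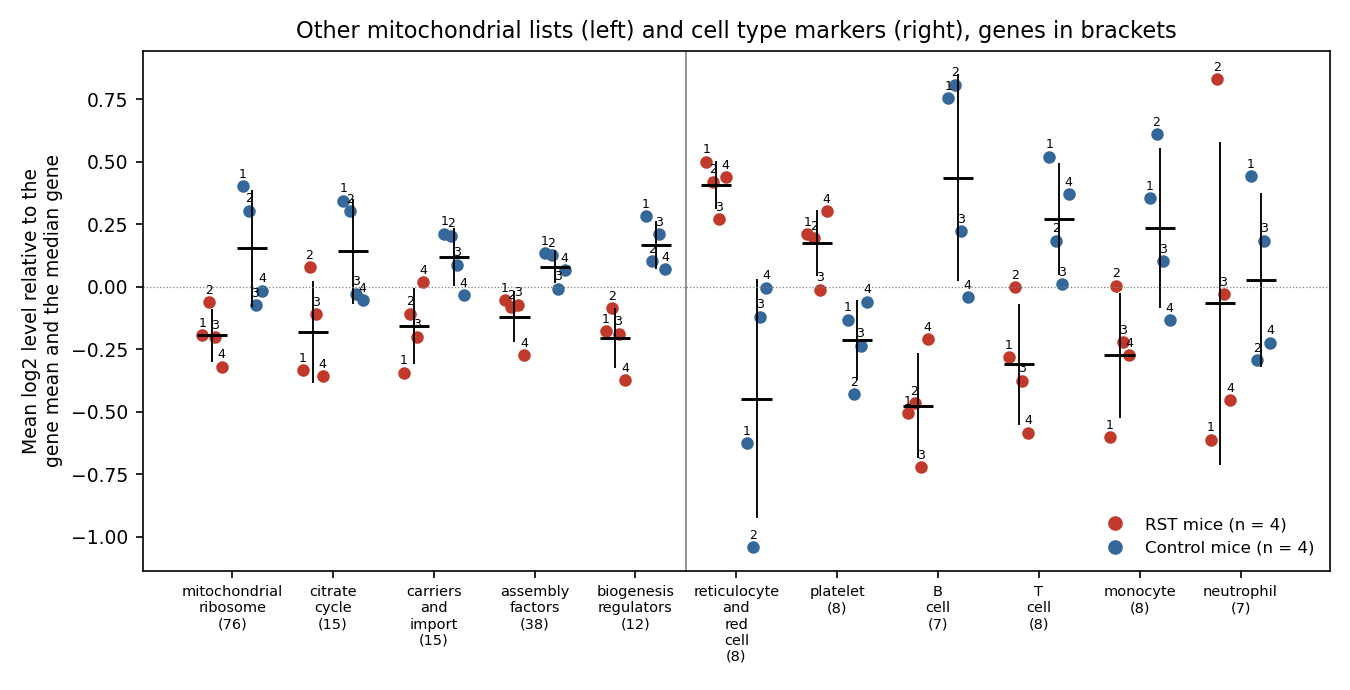
Scores by mouse (y axis, mean log2 deviation from each gene's mean, less that of the array's median gene) of 5 mitochondrial lists and 6 lists of cell type markers, with RST mice in red left of control mice in blue, numbered 1 to 4, and mean and SD (n = 4). The mitochondrial lists have lower means in RST mice, the red cell and platelet markers higher ones, and control mice 1 and 2 stand far from control mice 3 and 4 in the ribosome, red cell and B cell lists.

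Properties of whole arrays moved with single members too. RST mouse 4 had the lowest 75th percentile, 4.50 against 5.06 to 5.19 in the other RST mice and 5.13 to 5.37 in control mice. It was the lowest array in 84 of the 145 tested members and in 41.5% of all tested probe sets. Control mouse 2 was the highest in 52 members, a count for which no share over all tested probe sets is available. The hybridization controls, RNA added in known amounts, averaged 12.35 to 12.73 in RST mice, 12.60 and 12.74 in control mice 4 and 3, and 11.93 and 11.90 in control mice 1 and 2. With this mean as a covariate 4 members (2.76%) were lower at the unadjusted threshold, beside 5.73% of all tested probe sets. Labels and table give no slide or scan date, so a batch could not be set against the groups.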

How the data were processed

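The authors hybridized amplified blood RNA of 8 mice to Affymetrix Mouse Genome arrays and deposited log2 expression values, summarized per probe set after background correction and normalization. The submitters' processing notes name RMA, Partek and version 1.2.0.20 of Affymetrix Expression Console, and the methods name GSRMA. Which of them made the deposited values could not be settled. The arrays do not share the same distribution of values, with 75th percentiles from 4.50 to 5.37. Presence calls and scanner output were not analysed here. Of 45101 probe sets, the platform annotation gives 1 symbol for 34958 and several for 932. The 64 control probe sets were left out. The filter kept 25084, which were compared between 4 RST and 4 control mice by lmFit and eBayes of limma 3.58.1 (R 4.3.3), with p-values adjusted over all of them by Benjamini-Hochberg, after tests on simulated data. A call needed a fold change above 1.5 at an adjusted p under 0.05. Named are, in each complex, the 3 genes with the smallest p and the 1 with the highest fold change, tissue isoforms, subunit c, complex II and complex I core genes, Cycs, and the 2 with the smallest p in other mitochondrial lists. Others (Atp5a1, Ogdh, Nrf1, Hba-a2, Ptprc and genes with a motif) were added for context. Members and lists were chosen with earlier results of these data known. Ndufs6 and Cox7b were not analysed here. Alternatives changed the filter, normalization, prior, test, weights, covariates, probe sets, a replicate block and single mice. Promoters are from RefSeq (GRCm38.p6). Plots were made in Python 3.11.15 (matplotlib 3.10.9). The number of arrays limits the precision.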

Additional observations from a re-analysis of the deposited data

Results flagged for a closer look

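A mouse stood far from the other 3 of its group in 5 of the 88 groups of values examined, where chance gives about 1 in 20. The gap to the nearest mouse, as a share of the whole range of the group, was 0.951 for Sdhd in RST mice (RST mouse 4 at 4.64, the others at 5.69 to 5.74). It was 0.868 for Cox8a (RST mouse 4 at 8.94, the others at 9.53 to 9.62), 0.842 for Atp5b (11.00, the others at 11.40 to 11.48) and 0.851 for Cox6b1 (9.49, the others at 9.69 to 9.72). In these 4 genes the outlying array was RST mouse 4, which also had the lowest 75th percentile of all arrays, 4.50. Among control mice the share was 0.893 for Cox7a2l, with control mouse 3 at 7.47 and the others at 8.91 to 9.08.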

How the results depend on the processing

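Under all 14 alternatives and with each of 8 mice left out, the relative median stayed below 0 for complex I and above 0 for complex IV, and no member was called at an adjusted p under 0.05 (0 in each, although 35 probe sets among all were called with a trended and robust prior). With no filter the relative medians were −0.21 for all members, −0.38 for complex I, −0.56 for II, −0.22 for III, 0.14 for IV and −0.17 for V. With a filter at the 75th percentile they were 0.069 for all, −0.089 for I, 0.11 for III and 0.16 for V. Quantile normalization gave −0.13 for I, 0.087 for III, 0.14 for IV and −0.16 for V, with 9 members (6.21%, against 6.34% of all) lower at the unadjusted threshold in place of 20. Scaling to the control probe sets gave 42 lower (29%, against 18.4%) and 1 higher, the test of the methods 12 lower (8.28%, against 6.72%), and array weights 36 lower (24.8%, against 16.3%), 5 higher and −0.14 for I. With the hybridization controls as a covariate 4 were lower and 1 higher, and the medians were −0.054 for II, 0.12 for III and 0.14 for IV. Without control mice 1 and 2 there were 0 lower and 0 higher, with −0.078 for I, 0.018 for II and 0.16 for IV. The mean over probe sets gave 0.10 for III, and leaving out probe sets ending in _x_at or _s_at gave 9 lower without overlap, −0.30 for I and 0.18 for V. The cause was not tested. For the counts of higher members and of members without overlap in these settings, no share over all probe sets is available. They are not read as results about the members. The median of all tested genes, which the relative values subtract, was −0.24 in the main setting. It was −0.043 with no filter and −0.37 with a filter at the 75th percentile. With scaling to the control probe sets it was −0.45, and −0.050 with quantile normalization.

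With single mice left out, the count of lower members ran from 5 to 29, of higher members from 1 to 4, and of lower members without overlap from 15 to 29. For higher members and for members without overlap no share over all probe sets is available here. A group with a mouse left out also has a narrower or equal range, so that groups separate more readily. These counts are not read as results about the members. The relative medians ran from −0.061 to 0.0029 for all, −0.27 to −0.15 for complex I, −0.45 to −0.20 for II, −0.080 to 0.16 for III, 0.24 to 0.45 for IV and −0.025 to 0.13 for V. Without RST mouse 2, 29 members (20%, against 17.1%) were lower. With a replicate block, 30 members (20.7%, against 14%) were lower and 1 was higher. Deviations from the group means correlated at −0.24, 0.42, 0.046 and 0.20 between mice with the same number. With 4 such values, whether the numbers pair the mice cannot be decided.

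Genes near 0 changed sign. Scaling to the control probe sets, which by construction lowers all genes alike, gave −0.039 for Cox4i1, −0.098 for Cox6a1, −0.094 for Cox7a2, −0.19 for Cox7a2l and −0.17 for Cox7b2. The covariate gave −0.062 for Cox7a2 and −0.54 for Cox7b2, and leaving out control mice 1 and 2 gave −0.081 and −0.57. Cox7a2l was −0.29 with array weights and −0.043 without the ambiguous probe sets, and Ndufa4 0.016 with array weights and 0.035 after quantile normalization. With single mice left out, Cox7a2l ran from −0.37 to 0.23, Cox7b2 from −0.27 to 0.32, Cox6a2 from −0.39 to 0.11, Cox7a2 from −0.0040 to 0.22, Ndufa4 from −0.16 to 0.056 and Ndufs1 from −0.61 to 0.062. The other tested member genes named by the rule kept their direction in these settings. Cox4i2, Cox7a1, Cox8c and Ndufa4l2, which failed the filter, have no values with single mice left out and are not covered.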

Other observations

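Cox7c, a small subunit of complex IV, was chosen after its values were seen, because it had the largest SD within a group of all member genes. It was at 4.94, 4.28, 3.96 and 3.12 in RST mice and 5.03, 4.71, 4.28 and 1.90 in control mice. The value of control mouse 4 was far below its group, and the log2 fold change was 0.096 with a standard error of 0.62.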
